A study of Mus musculus with 2 samples.

Results

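The 10 genes described here encode carriers that bring the products of protein digestion into and out of the absorptive cell of the small intestine. They were chosen by gene symbol, as all probe sets annotated to Slc15a1, Slc6a19, Slc6a20a, Slc7a9, Slc3a1, Slc1a1 and Slc36a1, whose proteins are known from the apical (brush border) membrane, and to Slc7a7, Slc7a8 and Slc3a2, known from the basolateral membrane. These 10 genes of 18193 named on the array were read by 14 probe sets of 45037, 10 for apical and 4 for basolateral carriers. A probe set is a group of short probes that together read a transcript.

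Male C57BL/6J mice, an inbred strain, were 4 months old and were fed for 4 weeks on semisynthetic diets with 20% fat by weight. In the EPA&DHA diet, 44% of the lipid was a concentrate of marine n-3 fatty acids with 6% EPA (eicosapentaenoic acid) and 51% DHA (docosahexaenoic acid), and in the control diet all lipid was flaxseed oil, rich in ALA (alpha-linolenic acid). RNA of 11 of the 12 mice on EPA&DHA and of 10 of the 12 control mice, all wildtype, was combined into 1 pool per diet, and each pool was hybridized to 1 Affymetrix array. The sample labels name the whole small intestine and the study's methods name scraped epithelial cells, so how much tissue below the epithelium was included cannot be told. With 1 array per diet there is no replicate error, so differences are given as measured, without a test. In RNA from a whole tissue, fewer cells of a type and less RNA per cell cannot be told apart.

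Dietary protein reaches the enterocyte as free amino acids and as short peptides. Peptides enter together with protons, most neutral amino acids together with sodium, and cationic amino acids and cystine by exchange. On the basolateral side, heterodimers of a heavy chain and a light chain exchange amino acids towards the blood. Some of these carriers are markers of the mature enterocyte, and several are known in humans from inherited disorders of amino acid absorption.

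Across these carriers the diets differed little, except for the peptide carrier. Slc15a1 was 1.76-fold higher on EPA&DHA and was the only one of the 10 genes past 1.5-fold on the probe set that represents it, while Slc6a19, the main carrier of neutral amino acids, was higher on both of its probe sets but by unequal amounts. Slc7a8 and Slc6a20a were higher by less, Slc7a9 was lower, and the remaining 5 genes lay near equal signal. The spread to set these ratios against is the robust SD of the log2 ratios of the 500 probe sets nearest in signal, called the local SD. For the transporter probe sets it ran from 0.21 to 0.30.

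Slc15a1 encodes PepT1, which takes up short peptides with protons and is the main route for them across the brush border. Its only probe set had a signal of 4506 on EPA&DHA and 2553 on the control diet, which gives a log2 ratio of 0.82 at a local SD of 0.23. The EPA&DHA signal was thus well above the control signal for this brightness, and of the 500 probe sets nearest in signal, 16 had a higher ratio. Over all genes measured, 3.09% had a higher ratio than Slc15a1. Since a single probe set reads the gene, no other reading of the same transcript is at hand.

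Slc6a19 encodes B0AT1, the sodium-coupled carrier of neutral amino acids that is affected in human Hartnup disorder. Its brighter probe set had a signal of 15496 on EPA&DHA and 12505 on the control diet, 1.24-fold higher. The dimmer probe set had 8724 on EPA&DHA and 5412 on the control diet, 1.61-fold higher, and so lay past 1.5-fold. Both readings were above 0 on the log2 scale, at 0.31 and 0.69, and differed from each other by 0.38. That difference is larger than the local SD of either probe set, 0.22 and 0.24. Over the 5350 genes with more than 1 kept probe set, the difference between the 2 brightest readings of a gene had an SD of 0.53. These genes include dim ones, whose readings spread more, so 0.53 is a wide measure for bright probe sets.

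Slc6a20a, which encodes the sodium-coupled carrier of proline and other imino acids, had a signal of 12864 on EPA&DHA and 10807 on the control diet. Its log2 ratio of 0.25 was about as large as its local SD of 0.23. The ratio of Slc6a20a lay within 0.06 of that of Slc6a19 on its brighter probe set, both in the SLC6 family of sodium-coupled carriers. The related gene Slc6a20b was close to the signal limit of 50, with 51.5 on EPA&DHA and 63.4 on the control diet.

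Slc36a1 encodes PAT1, which carries small neutral amino acids with protons and is also found in lysosomes. It had a signal of 2873 on EPA&DHA and 2707 on the control diet, a log2 ratio of 0.09. The other proton-coupled carrier, Slc15a1, lay 0.73 above it on the log2 scale, which is more than their combined local SD of 0.34. Slc1a1 encodes EAAT3, the sodium-coupled carrier of glutamate and aspartate. Its 3 probe sets had signals of 1379, 817 and 347 on EPA&DHA, against 1497, 734 and 390.0 on the control diet. The readings fell on both sides of equality, with log2 ratios of -0.12, 0.15 and -0.17, and each was smaller than its local SD.

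Slc7a9 and Slc3a1 encode the light chain b0,+AT and the heavy chain rBAT of the apical exchanger for cystine and cationic amino acids, and loss of either causes cystinuria in humans. Slc7a9 had a signal of 13223 on EPA&DHA and 16934 on the control diet, 1.28-fold lower, and was the lowest of the 10 genes. On the log2 scale it lay at -0.36, with a local SD of 0.21, and 28 of the 500 nearest probe sets had a lower ratio. The heavy chain Slc3a1 had almost equal signals of 9435 on EPA&DHA and 9336 on the control diet. The light chain thus stood 0.37 below its heavy chain on the log2 scale, little more than the combined local SD of 0.32.

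**Figure D1:**
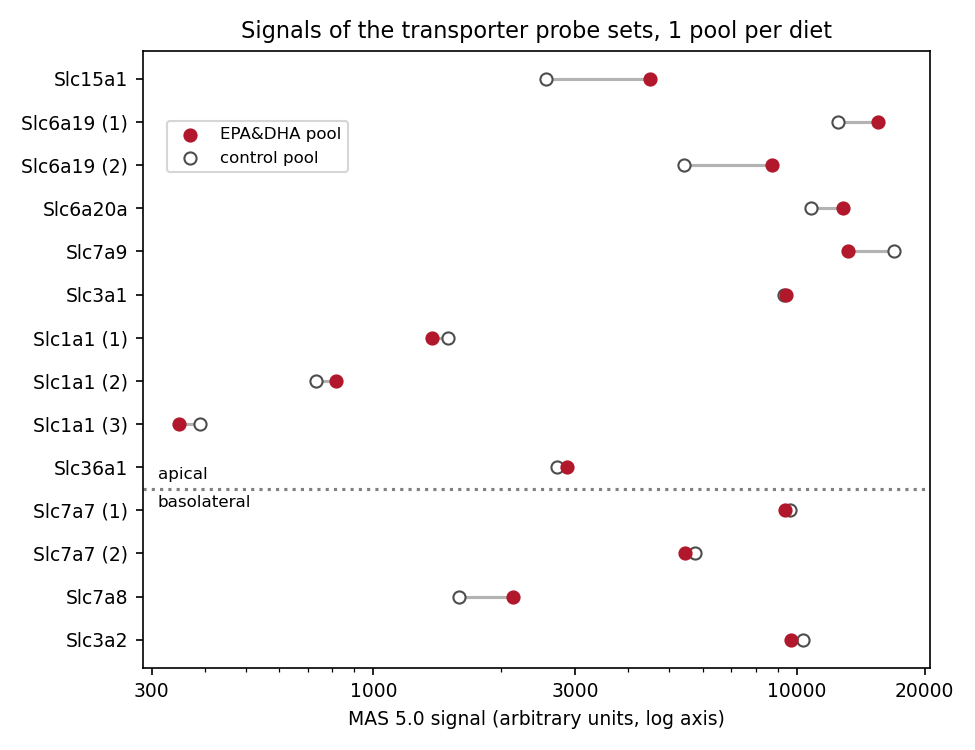
MAS 5.0 signal (x axis, log scale) of each probe set of the 10 transporter genes (rows), with filled circles for the EPA&DHA pool and open circles for the control pool. Numbers in brackets order the probe sets of a gene from bright to dim. Slc15a1, with 4506 on EPA&DHA and 2553 on the control diet, shows the widest gap.

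On the basolateral side, Slc3a2 encodes 4F2hc, the heavy chain shared by the light chains of Slc7a7 and Slc7a8. It had a signal of 9703 on EPA&DHA and 10350.5 on the control diet, a log2 ratio of -0.09. Slc7a7 encodes y+LAT1, which exports cationic amino acids in exchange for neutral ones with sodium and is lost in human lysinuric protein intolerance. Its probe sets had 9392 and 5428 on EPA&DHA, against 9648 and 5741 on the control diet. Both log2 ratios, -0.04 and -0.08, were far inside the local SD of 0.24 and 0.25, and they lay 0.04 apart.

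Slc7a8 encodes LAT2, an exchanger of neutral amino acids. It had a signal of 2139 on EPA&DHA and 1594 on the control diet, 1.34-fold higher, which was the second highest ratio of the 10 genes and the highest on the basolateral side. On the log2 scale it lay at 0.42, with a local SD of 0.25, and 36 of the 500 nearest probe sets had a higher ratio. Slc7a8 stood 0.46 above the other basolateral light chain Slc7a7 and 0.52 above its heavy chain Slc3a2, against combined local SDs of 0.35 in both cases.

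**Figure D2:**
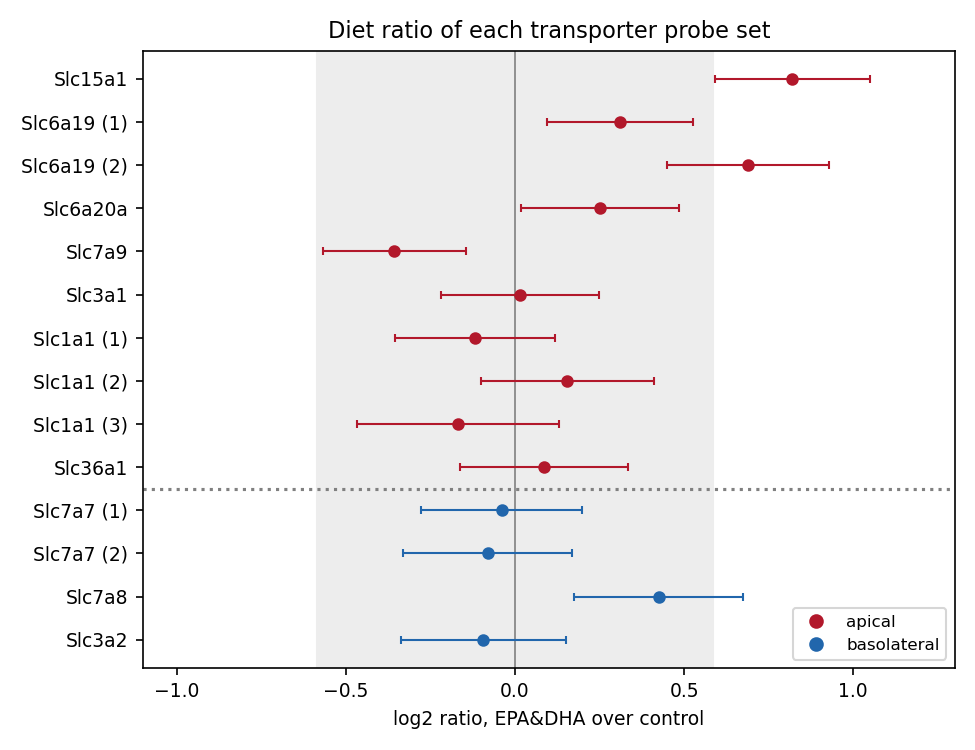
Log2 ratio of EPA&DHA over control signal (x axis) for each transporter probe set (rows), apical carriers in red and basolateral carriers in blue. Bars are 1 local SD, the spread of probe sets of like signal and no replicate error, and the grey band marks less than 1.5-fold. Slc15a1 at 0.82 and the dimmer probe set of Slc6a19 at 0.69 lie outside the band.

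Counted over genes, with each gene represented by its brightest probe set, 1 of 10 carriers was at least 1.5-fold higher on EPA&DHA, beside 6.24% of the 11756 genes measured. None (0 of 10) was at least 1.5-fold lower, beside 8.02% of all genes measured. A single gene among 10 is near that background. The carriers are bright, however, and bright genes spread less. Among the 2950 genes within the signal range of the carriers, 2.88% passed 1.5-fold upwards and 1.76% downwards. At 2-fold, 0 of 10 carriers were higher, beside 1.61% of all genes, and 0 were lower, beside 2.26%. Over probe sets, 2 of 14 were at least 1.5-fold higher and 0 lower, beside 8.11% and 9.01% of the 24461 probe sets kept.

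The median log2 ratio of the 10 carriers was 0.05, and that of all genes measured was -0.05. Of the carriers, 6 were above 0 and 4 below, while 56.5% of all genes were below 0. Apical carriers had a median of 0.09, with 5 of 7 above 0, and basolateral carriers had a median of -0.04, with 1 of 3 above 0. The difference of 0.12 between these medians is smaller than the local SD of any carrier. The ranges of both sides overlapped, from -0.36 to 0.82 for apical and from -0.09 to 0.42 for basolateral carriers. Ordered by ratio, the genes ran Slc15a1, Slc7a8, Slc6a19, Slc6a20a, Slc36a1, Slc3a1, Slc7a7, Slc3a2, Slc1a1 and Slc7a9. Of the 9 gaps between neighbours in this order, only that between Slc15a1 and Slc7a8, 0.39, was wider than the combined local SD of the pair, 0.34.

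**Figure D3:**
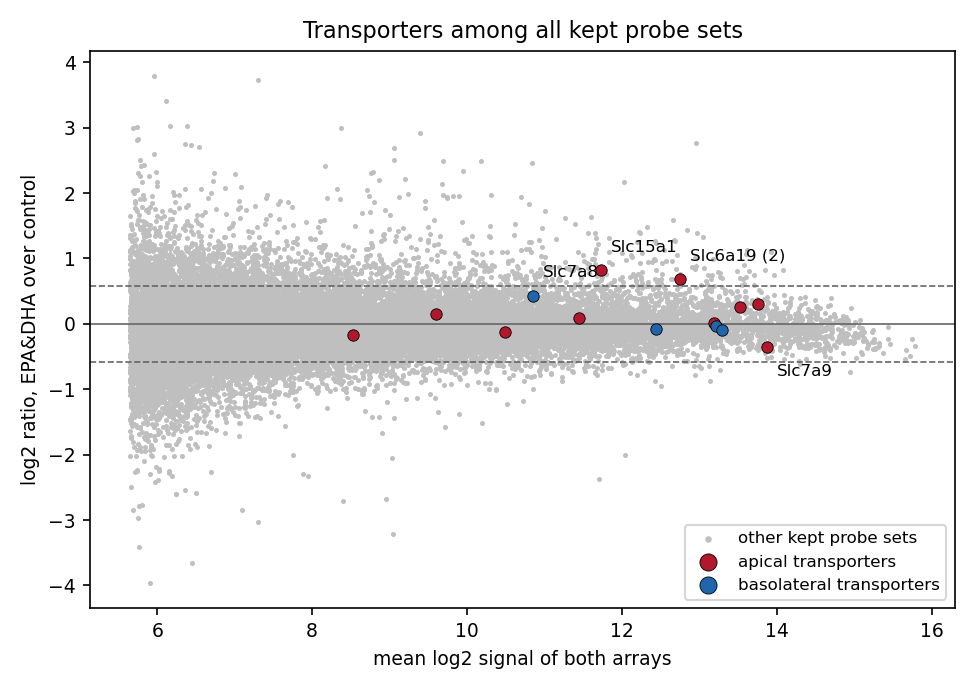
Log2 ratio of EPA&DHA over control (y axis) against the mean log2 signal of both arrays (x axis) for all 24461 kept probe sets in grey, with apical carriers in red and basolateral carriers in blue. Dashed lines mark 1.5-fold. The carriers lie in the brighter part of the plot, where ratios spread less, and 2 of their 14 probe sets lie above the upper line.

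Sequences upstream of the transcript starts are shown for the carriers with the highest ratios, Slc15a1 and Slc7a8, and for Slc3a1, whose signals were almost equal. Each is the 250 bases before a RefSeq start in build GRCm38.p6, read along the strand of the gene, and capitals mark the motifs found. All 10 genes matched the promoter table, with 15 start sites.
Slc15a1, chr14:121505255-121505504, minus strand: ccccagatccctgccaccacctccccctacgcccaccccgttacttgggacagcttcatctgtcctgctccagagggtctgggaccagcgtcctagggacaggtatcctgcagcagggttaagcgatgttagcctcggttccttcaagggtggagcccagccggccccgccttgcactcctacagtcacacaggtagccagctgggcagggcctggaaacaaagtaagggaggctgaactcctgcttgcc
Slc7a8, chr14:54781887-54782136, minus strand: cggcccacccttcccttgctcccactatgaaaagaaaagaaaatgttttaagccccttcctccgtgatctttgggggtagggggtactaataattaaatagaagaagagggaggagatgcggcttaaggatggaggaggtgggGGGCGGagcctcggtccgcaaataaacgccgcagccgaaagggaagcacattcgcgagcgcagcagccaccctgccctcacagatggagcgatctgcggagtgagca
Slc3a1, chr17:85028097-85028346, plus strand: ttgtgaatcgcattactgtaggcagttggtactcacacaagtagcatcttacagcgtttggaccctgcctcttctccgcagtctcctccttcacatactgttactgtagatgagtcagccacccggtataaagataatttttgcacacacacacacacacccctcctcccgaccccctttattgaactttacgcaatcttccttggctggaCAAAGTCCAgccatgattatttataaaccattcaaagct

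On both strands of such windows, 5 motifs were searched. The HNF4 site CAAAGTCCA was found in Slc3a1 alone among the carriers, 39 bases before the start, and in 0.384% of all 32851 windows. The GC box GGGCGG, which Sp1 binds, was found in 6 of the 15 carrier windows, beside 32.7% of all windows. These 6 windows belong to 5 of the 10 genes, among them Slc7a8. The amino acid response element TGATGNAA, which binds ATF4, was found in Slc7a7 alone, in 2 of its windows, and in 3.45% of all windows. The PPAR response element, searched as AGGTCA repeated in the same direction with any 1 base between, and the CDX core TTTATG were found in none of the 15 windows of the carriers, against 0.0335% and 10.8% of all windows. The Slc15a1 window held none of these 5 motifs. A match says only that the letters are present, and no match says nothing about a factor.

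The transcripts of factors known to act on such promoters were measured on the same arrays. Ppara, a receptor for fatty acids that is known to raise PepT1 in fasted rats, had a signal of 3664 on EPA&DHA and 1998 on the control diet, and its other probe sets had log2 ratios of 0.93 and 0.95. On brightest probe sets, Ppara alone of 6 measured factors was at least 1.5-fold higher, beside 6.24% of all genes measured. None (0 of 6) was at least 1.5-fold lower, beside 8.02%. Ppara lay within the signal range of the carriers, where 2.88% of genes were at least 1.5-fold higher. Hnf4a, a factor of the differentiated enterocyte, was the lowest, at -0.31 on its brightest probe set, but its 4 probe sets ranged from -0.45 to 0.54. The intestinal factor Cdx2 was at -0.14 with 0.11 on its other probe set, and the general activator Sp1 was at -0.17. Atf4, which answers amino acid shortage, was at -0.09 with 0.54 on its next probe set. Nfe2l2 was at 0.14, with 0.85 on its dimmer probe set. The median of these 6 genes was -0.11, and it turned to 0.11 when the probe sets of each gene were averaged.

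Carriers depend on ion gradients, and here the sodium-proton exchanger NHE3, the product of Slc9a3, stood apart. NHE3 returns protons to the lumen and so maintains the gradient that PepT1 uses. Slc9a3 had a signal of 4079 on EPA&DHA and 7465 on the control diet, 1.83-fold lower, with a log2 ratio of -0.87 at a local SD of 0.26. Slc9a3 and Slc15a1 thus lay on opposite sides of equality. Like Slc15a1, Slc9a3 was read by a single kept probe set. The other Slc9a3 probe set was below the signal limit, with 45.2 on EPA&DHA and 49.9 on the control diet. Of 8 measured genes in this list, 1 was at least 1.5-fold lower, beside 8.02% of all genes measured. That gene, Slc9a3, lay within the signal range of the carriers, where 1.76% of genes were at least 1.5-fold lower. None (0 of 8) was at least 1.5-fold higher, beside 6.24%. The median was -0.17, with 2 genes above 0 and 6 below. The related exchanger Slc9a2 was at -0.15, the anion exchanger Slc26a6 at -0.53 and the sodium pump subunit Atp1b1 at -0.09. In contrast, the anion exchanger Slc26a3 was at 0.34 and was higher on each of its kept probe sets, from 0.27 to 0.99. The highest was the membrane carbonic anhydrase Car4, at 0.42.

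Transcripts of proteins that hold carriers at the brush border were compared next. Anpep, the aminopeptidase N that associates with B0AT1, had 21740.4 on EPA&DHA and 22390.4 on the control diet, a log2 ratio of -0.04. The scaffold gene Pdzk1, whose product binds PepT1, was the lowest at -0.17, and the scaffold gene Slc9a3r1 was at -0.02. Slc9a3r2 was dim, at -0.01 on its brightest probe set and 0.60 on the next, and its other 4 probe sets, all higher on EPA&DHA, were below the signal limit. None (0 of 4) was 1.5-fold apart on its brightest probe set, beside 6.24% of all genes higher and 8.02% lower. The median was -0.03. Cltrn, which encodes collectrin, the partner of such carriers in the kidney, was below the signal limit, with 42.6 on EPA&DHA and 27.4 on the control diet.

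Among 33 other amino acid and peptide transporters, 22 were bright enough to be measured. Of these, 2 were at least 1.5-fold higher and 0 lower, beside 6.24% and 8.02% of all genes measured. The median of these 22 was -0.05, beside -0.05 for all genes. Slc1a5, which encodes the neutral amino acid exchanger ASCT2, had 355 on EPA&DHA and 178 on the control diet, a log2 ratio of 0.99 at a local SD of 0.38. Slc1a3, a glutamate carrier, had 103 on EPA&DHA and 64.8 on the control diet, and its log2 ratio of 0.66 was about equal to its local SD of 0.65. The lowest was Slc36a4, a relative of PAT1, at -0.50 on a dim probe set with a local SD of 0.67. Of 3 further carriers fixed by name, Slc16a10 and Slc43a2 are known from the basolateral membrane. Slc16a10, which encodes the aromatic amino acid carrier TAT1, had 4567 on EPA&DHA and 4960.1 on the control diet. Slc43a2, which encodes the facilitated carrier LAT4, had 9284 on EPA&DHA and 9779 on the control diet. Slc7a6, a dim relative of Slc7a7, was at 0.08 and, on its other probe set, at 0.99.

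**Figure D4:**
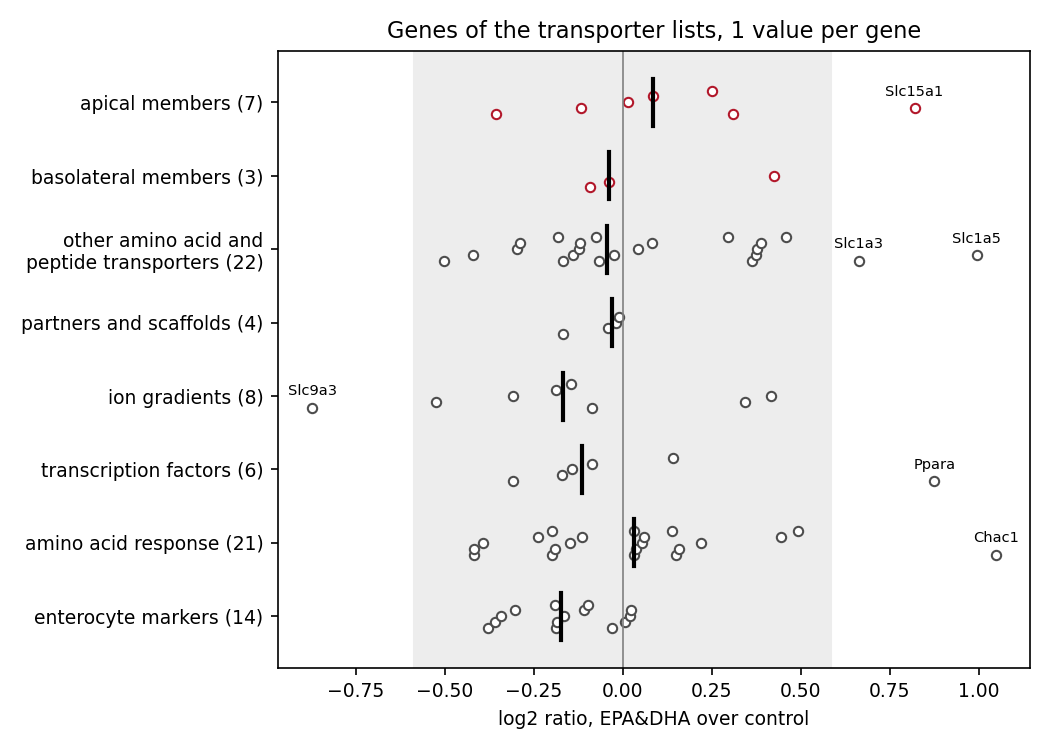
Log2 ratio of EPA&DHA over control (x axis), 1 circle per gene, for the carriers in red and for related lists in grey, with the number of genes in brackets. Black bars are medians, from 0.09 for apical carriers to -0.17 for enterocyte markers, and the grey band marks less than 1.5-fold. Genes outside the band are named.

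Genes that respond to a shortage of amino acids through ATF4 showed no common direction. Of 21 measured, 1 was at least 1.5-fold higher and 0 lower, beside 6.24% and 8.02% of all genes measured. Above 0 were 12 and below 0 were 9, and the median was 0.03. The one past 1.5-fold was Chac1, a glutathione-degrading enzyme, with 113 on EPA&DHA and 54.6 on the control diet, near the signal limit. Ddit3, a stress-induced transcription factor, was the lowest at -0.42, with 0.67 on a dimmer probe set. Asns, which makes asparagine and is a classic member of this response, had a log2 ratio of -0.20.

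The cells that carry these transporters were followed by their markers. On their brightest probe sets, all 14 measured enterocyte markers lay within 1.5-fold, from -0.38 for Apoa4 to 0.02 for Treh, with a median of -0.17, and their summed signal was 376121 on EPA&DHA and 432464 on the control diet. Of these genes, 3 were above 0 and 11 below. Other kept probe sets of this list went both ways. Those of Apoa1, from -0.54 to -0.40, and of Apoa4, at -0.37, were below 0. Those of Mttp (0.21), Epcam (0.14) and Dpp4 (0.07 to 0.27) were above 0. For Slc5a1, the sodium-glucose carrier in this list, the brightest probe set was at -0.10. The other Slc5a1 probe set had 20716 on EPA&DHA and 12383 on the control diet, 1.67-fold higher. Along the length of the intestine, 6 proximal markers had a median of -0.01 and ranged from -0.32 (Gata4) to 0.23 (Onecut2). The 6 ileal markers had a median of 0.04, the highest being Slc51a at 0.14. Of these 6, 1 was at least 1.5-fold lower, beside 8.02% of all genes measured. This was the ileal hormone Fgf15, with a signal of 55.4 on EPA&DHA and 452 on the control diet. The part of cell composition or of intestinal region in the ratios of the carriers was not tested.

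Markers of other cells were read in the same way, beside the 6.24% of all genes at least 1.5-fold higher and 8.02% lower. Goblet cells had a median of -0.31 over 7 genes, from -0.39 (Fcgbp) to -0.12 (Spdef). Their other kept probe sets were at 1.37 for Agr2, -0.93 for Clca1, and -0.28 and -0.19 for Zg16. Paneth cells had a median of -0.11 over 5 genes, from -0.48 (Ang4) to 0.11 (Mmp7). Their other kept probe sets were at -0.36 for Ang4, and at -0.13 and -1.49 for Lyz1. B and plasma cells had a median of -0.43 over 6 genes, from -0.75 (Ms4a1) to 0.37 (Jchain), and 3 were at least 1.5-fold lower. T cells had a median of -0.10 over 7 genes, from -0.82 (Cd8a) to 0.61 (Cd3e). The other kept probe set of Ms4a1 was at -0.11, and those of Cd8a ranged from -0.52 to 0.02. For smooth muscle and stroma the median was -0.32 over 6 genes, from -0.56 (Des) to -0.15 (Acta2). Des was dim, with 79.3 on EPA&DHA and 116 on the control diet, and its local SD was 0.53. In this list 2 further genes were below the signal limit. All 8 measured genes of the exocrine pancreas were at least 1.5-fold higher on their brightest probe sets, from 0.69 (Clps) to 2.69 (Cpb1). Their summed signal was 14495 on EPA&DHA and 4900.4 on the control diet. The other Clps probe set was at 0.41. Technical measures were compared as well. Spiked poly-A transcripts, read by 24 probe sets, were 1.27-fold higher in median on EPA&DHA, and the ratio of 3' to 5' signal was 0.793 on EPA&DHA and 0.932 on the control diet for Gapdh. For Actb this ratio was 1.16 on EPA&DHA and 1.22 on the control diet, and the 18 hybridization control probe sets had a median log2 ratio of -0.11. The part of these differences in the ratios of the carriers was not tested.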

How the data were processed

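RNA pools of the small intestine, 1 per diet, were hybridized to Affymetrix MOE430_2 arrays, and the authors summarized probe intensity per probe set with MAS 5.0. The deposited intensity values are linear signals, and both arrays had the same trimmed mean of 500.004 (2% from each end), so the scaling to this mean left them unchanged. Of 45101 probe sets, 64 are control probe sets. Of the other 45037, 34945 named 1 gene, 932 several and 9160 none in the platform annotation. Symbols were checked through gene identifiers against RefSeq, and 0 changed. Genes missing from this table are not analysed here.

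Probe sets with a geometric mean signal of at least 50 were kept (54.3%). All 14 transporter probe sets passed on both arrays. Ratios are log2 of the EPA&DHA signal over the control signal, a gene took its brightest kept probe set that names it alone, and counts used 1.5-fold. The local SD is the scaled median absolute deviation over the 500 kept probe sets nearest in signal. Named are all 10 members, and from related lists genes past 1.5-fold, the highest and lowest, and partners fixed by name. Cdx2, Sp1, Atf4, Nfe2l2, Slc9a2, Slc26a3, Slc26a6, Atp1b1, Slc9a3r1 and Asns were added after their values were seen. From the marker lists, Slc5a1, Apoa1, Mttp, Epcam, Dpp4, Agr2, Clca1, Zg16 and Lyz1 were also named after their values were seen. Members and lists were chosen with earlier results of these data known. The number of arrays, 1 per diet, limits the precision. The code was tested on simulated data. Alternatives were other scalings, offsets, filters and ways to represent a gene. Python 3.11.15, numpy 2.4.6, pandas 2.3.3, scipy 1.17.1, statsmodels 0.14.6 and matplotlib 3.10.9 were used.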

Additional observations from a re-analysis of the deposited data

How the results depend on the processing

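Under all 10 alternatives (signals as deposited, median centring, quantile normalization, a loess correction with span 0.3, offsets of 50 and 16, no filter, a filter at 100, the mean of the probe sets of a gene, and no probe sets ending in _x_at or _s_at), 1 carrier was at least 1.5-fold higher and 0 lower. For the carriers, signals as deposited, either filter setting and the exclusion of _x_at and _s_at probe sets could not change this count. The main scaling left the signals unchanged, and no transporter signal was below 347. No carrier is represented by an _x_at or _s_at probe set. The median log2 ratio ranged from 0.03 to 0.09 over all carriers, from 0.08 to 0.12 over apical carriers and from -0.07 to -0.00 over basolateral carriers. Slc15a1 ranged from 0.81 to 0.86 and Slc6a19 from 0.29 to 0.50, the value of 0.50 being the mean of its probe sets. Slc3a1 was the only carrier with ratios on both sides of 0, from -0.02 to 0.05. The median of the transcription factors turned positive as the mean of the probe sets of a gene (0.11) and without _x_at and _s_at probe sets (0.03). Medians of the other transporters (-0.07 to 0.02), the partners (-0.04 to 0.06) and the amino acid response (-0.03 to 0.07) also lay on both sides of 0. Among the other transporters, genes at least 1.5-fold higher numbered 1 with either offset or the filter at 100, where Slc1a3 was not counted, and 8 without a filter, where 4 were lower. Without the filter, 11 more dim genes enter this list, and 14.5% of all genes were at least 1.5-fold higher and 19.5% lower. In the amino acid response, 0 were higher with the filter at 100 and 1 was lower without a filter, and among partners 1 was higher without a filter or without _x_at and _s_at probe sets. No paired analysis was possible because there is 1 array per diet. Each ratio rests on 1 array per diet, so differences between mice within a diet were not measured.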

Other observations

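Slc38a9, which encodes a lysosomal carrier that senses arginine, was above 0 on all 6 of its kept probe sets, with a log2 ratio of 0.46 on the brightest, where the signal was 275 on EPA&DHA and 199.9 on the control diet, and of 0.72 on the next. The kept probe sets of Slc38a10, a carrier of glutamine and related amino acids, disagreed, from -1.29 to 0.78, with -0.12 on the brightest. For Slc38a2, a sodium-coupled carrier of small neutral amino acids, the brightest probe set was at 0.37 and the next at -0.26, and for the taurine carrier Slc6a6 they were at 0.38 and -0.22. These genes were chosen after their values were seen.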
